A study of Mus musculus with 9 samples.

Results

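Pancreatic stellate cells, the fibroblast-like cells that lay down much of the matrix of the pancreas, were measured for 10 chemokine genes: Cxcl1, Cxcl2, Cxcl5, Cxcl12, Cxcl14, Cxcl15, Cxcl16, Ccl2, Ccl7 and Cx3cl1. They were chosen by name, by pairing the Ensembl identifiers of the count table with GENCODE M21 symbols, and all 10 were found among 49315 identifiers. In 0.5% oxygen, control cells held more Cxcl5 and Cxcl12 transcript and less Cxcl15, Ccl2 and Ccl7 transcript than in 20% oxygen. With the Hif1a guide in 0.5% oxygen, Cxcl5, Cxcl12, Cxcl15, Cxcl16 and Cx3cl1 were lower than in control cells at the same oxygen. Under 17 alternative analyses, the Ccl7 fall in low oxygen missed the significance threshold in 4, and the lower Cx3cl1 with the guide in 6. With the guide, Cxcl5 averaged 2.89 CPM, against 7.03 CPM in control cells at 0.5% oxygen and 2.83 CPM at 20% oxygen. CPM is the TMM-scaled count relative to library size. The title of the series asks about hypoxia and an inflammatory fibroblast phenotype.

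The cells were C57BL6 mouse stellate cells that had become immortal by spontaneous outgrowth. Every group, the controls included, carried lentiviral Cas9 and 1 guide RNA under 2 ug/mL puromycin, and polyclonal populations were used. HIF1a-ko hypoxia is cells with the guide HIF1a sg2 at 0.5% oxygen for 48 h, R26 hypoxia is cells with the control guide R26 sg1 at 0.5% oxygen for 48 h, and R26 normoxia is R26 sg1 cells at 20% oxygen for 48 h, with 3 libraries each. The Hif1a guide at 20% oxygen was not analysed here. No label ties the libraries within a group to different cultures, so the spread behind each p-value is that between these samples and may be technical.

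Poly-A RNA libraries held 43837809 to 107840223 counts. In each group 1 library was deeper than the others (HIF1a-ko hypoxia 1, R26 hypoxia 3 and R26 normoxia 3, with at least 88451200 counts), and the 6 shallower ones held at most 51279104. The split into deeper and shallower was read from the totals, not from the labels. Hif1a transcript itself was 121.7 ± 4.27 CPM in HIF1a-ko hypoxia and 184.5 ± 20.1 CPM in R26 hypoxia (SD, n = 3 each). Egln3, an oxygen-sensing hydroxylase gene induced by HIF, was 5.28 ± 0.64 CPM in HIF1a-ko hypoxia, 41.2 ± 1.5 CPM in R26 hypoxia and 2.40 ± 0.83 CPM in R26 normoxia. The 11 stellate and fibroblast markers, mostly Col1a1, Col1a2 and Vim, summed to 12557 to 13072 CPM in HIF1a-ko hypoxia, 18561 to 20209 CPM in R26 hypoxia and 16640 to 18392 CPM in R26 normoxia, with no overlap. Lrat, which makes the retinyl esters that quiescent stellate cells store, had 1 count in 1 library and none in the other 8, while Gfap stayed at or below 0.72 CPM and Des at or below 3.73 CPM.

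Chemokines are small secreted proteins that guide migrating cells through G-protein-coupled receptors. CXC chemokines with a Glu-Leu-Arg motif, such as those of Cxcl1, Cxcl2 and Cxcl5, draw neutrophils through CXCR2. CCL2 and CCL7 draw monocytes through CCR2, CXCL12 acts on CXCR4 and is cleared by ACKR3, and the products of Cxcl16 and Cx3cl1 are made as membrane-anchored proteins that proteases can release. Fibroblasts of the pancreas are a known source of CXCL12, and NF-kB is a known activator of Cxcl1, Cxcl2, Cxcl5, Ccl2 and Ccl7.

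Levels of the 10 genes spanned more than 3 orders of magnitude. Per kb of merged exons, the scale on which genes can be compared, Cxcl12 stood at 510 ± 22.0 CPM per kb in HIF1a-ko hypoxia, 798 ± 34.4 CPM per kb in R26 hypoxia and 599 ± 32.3 CPM per kb in R26 normoxia (SD, n = 3 each). By plain CPM it ranked 8 in HIF1a-ko hypoxia, 6 in R26 hypoxia and 8 in R26 normoxia among all identifiers. It supplied 97.6% to 98.8% of the summed plain CPM of the 10 genes in every library. That share makes no allowance for length, and the merged exons of Cxcl12 span 8176 bases, against 801 to 3930 bases in the other genes. Cxcl15 came next in both R26 groups, at 14.6 ± 0.15 CPM per kb in R26 hypoxia and 29.5 ± 0.32 CPM per kb in R26 normoxia. In HIF1a-ko hypoxia Cxcl15, at 6.66 ± 0.51 CPM per kb, no longer differed beyond its spread from Ccl2 at 7.70 ± 1.38 and Ccl7 at 7.10 ± 1.20 CPM per kb.

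Below these, the order was Cx3cl1, then Cxcl16 and Cxcl5, then Cxcl1, with Cxcl14 and Cxcl2 last. In R26 normoxia Ccl7 (10.3 ± 1.58 CPM per kb) and Ccl2 (10.1 ± 0.34) did not differ beyond their spread, nor did Cxcl16 (1.99 ± 0.43) and Cxcl5 (1.52 ± 0.29). Ccl2 (6.16 ± 0.46) and Cx3cl1 (5.94 ± 0.65) did not differ beyond their spread in R26 hypoxia. Cxcl5 passed Cxcl16 in R26 hypoxia, where they held 3.77 ± 0.59 and 1.85 ± 0.12 CPM per kb. Without Cxcl12, the other 9 genes summed to 52.2 to 60.7 CPM in HIF1a-ko hypoxia, 82.1 to 83.9 CPM in R26 hypoxia and 116 to 124 CPM in R26 normoxia, with no overlap between groups. Of these sums, Cxcl15 alone averaged 14.2 CPM in HIF1a-ko hypoxia, 31.1 CPM in R26 hypoxia and 62.7 CPM in R26 normoxia. The order of the sums therefore does not show that the remaining genes moved together, and Cxcl5 was highest in R26 hypoxia.

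**Figure D1:**
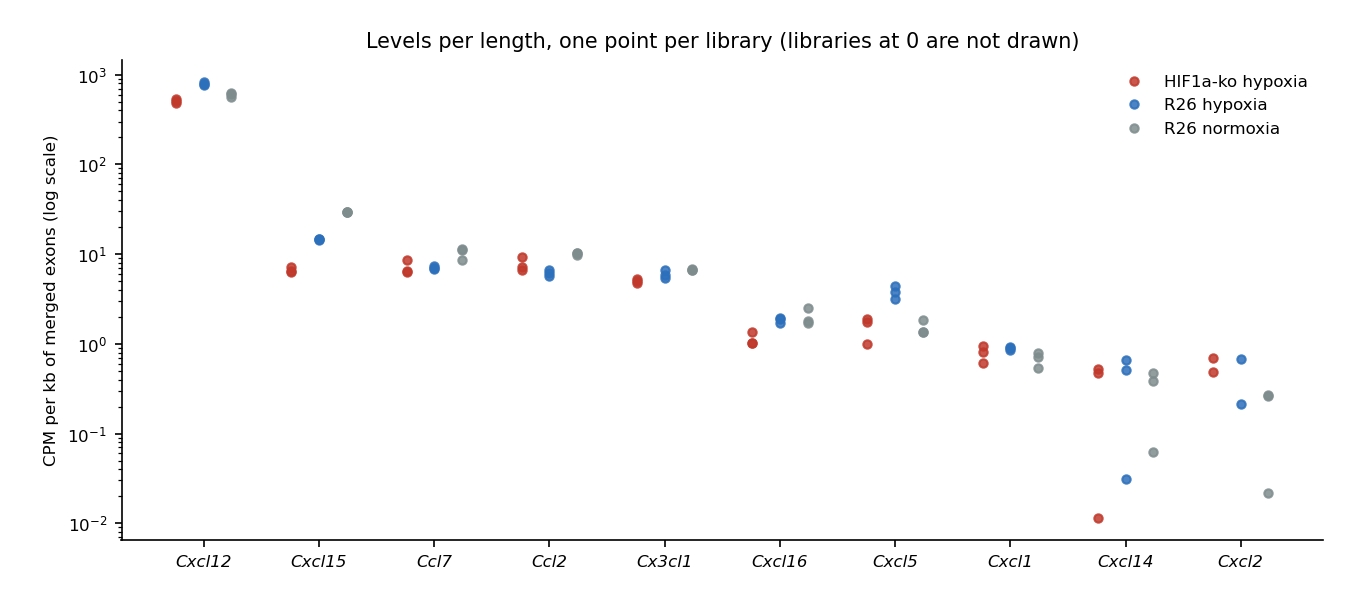
CPM per kb of merged exons on a log axis for each of the 10 chemokine genes, 1 point per library, with HIF1a-ko hypoxia left, R26 hypoxia in the middle and R26 normoxia right. Libraries at 0 are not drawn, which leaves out HIF1a-ko hypoxia 1 and R26 hypoxia 3 for Cxcl2. Cxcl12 lies at 510 to 798 CPM per kb by group mean, far above Cxcl15, and Cxcl2 and Cxcl14 lie lowest.

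In R26 hypoxia against R26 normoxia, 2 of the 10 genes were higher and 3 lower at an adjusted p under 0.05 (edgeR quasi-likelihood test, Benjamini-Hochberg adjustment over 18211 genes), against 12.8% of all tested genes higher and 12.4% lower, 25.2% in all. All 10 passed the filter on low counts. Of all genes, 4591 were called. The fit of these 2 groups alone called 3964, and 7259 with the replicate number as a block added, and both left the same number of chemokines called in each direction. The median log2 fold change was 0.15 over the 10 genes and -0.01 over all genes.

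In HIF1a-ko hypoxia against R26 hypoxia, 5 of the 10 were lower and none higher, against 23.8% of all genes lower and 22.0% higher, 45.8% in all. By unadjusted edgeR p under 0.05 and by DESeq2, 1 gene, Ccl2, was higher. In HIF1a-ko hypoxia against R26 normoxia, 6 of the 10 were lower and none higher, against 21.9% lower and 19.5% higher, 41.4% in all, and none was higher by unadjusted edgeR p or by DESeq2. The median log2 fold change over the 10 genes was -0.25 in HIF1a-ko hypoxia against R26 hypoxia and -0.31 in HIF1a-ko hypoxia against R26 normoxia, with -0.02 and -0.01 over all genes. Each pair of comparisons shares a group of libraries, so their fold changes are given side by side and are not independent of each other.

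**Figure D2:**
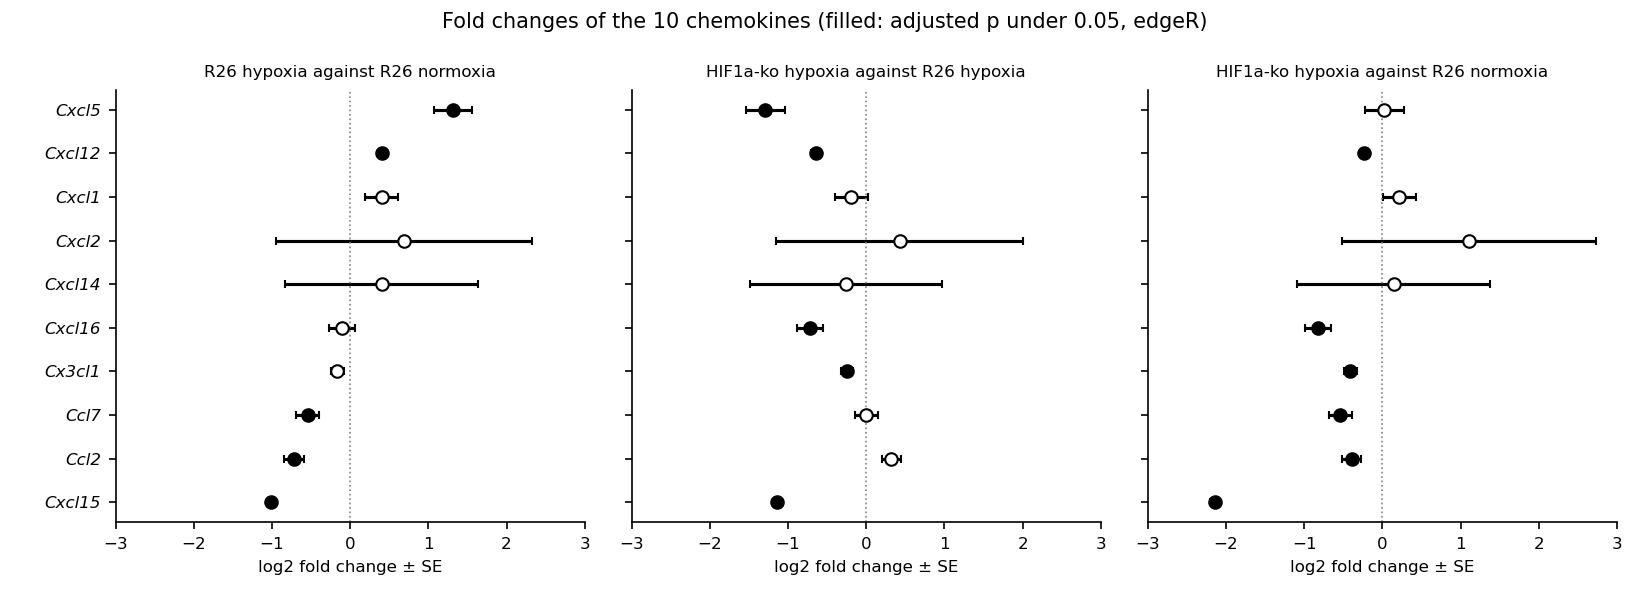
Log2 fold change with its standard error (SE) from edgeR for the 10 chemokine genes in the 3 comparisons, with filled points for an adjusted p under 0.05. Cxcl5 and Cxcl12 lie right of 0 in R26 hypoxia against R26 normoxia and left of it in HIF1a-ko hypoxia against R26 hypoxia, while Cxcl15 lies left of 0 in all 3.

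Cxcl5 (ENSMUSG00000029371, chromosome 5, 90759360 to 90761624, plus strand, GRCm38) encodes a neutrophil attractant, and it changed most among the genes that rose. Its values were 1.87, 3.26 and 3.54 CPM in HIF1a-ko hypoxia 1 to 3, 7.0, 5.95 and 8.14 CPM in R26 hypoxia 1 to 3, and 2.53, 3.46 and 2.51 CPM in R26 normoxia 1 to 3. All 3 R26 hypoxia libraries lay above the other 6, which overlapped. The log2 fold change was 1.31 ± 0.25 (SE) in R26 hypoxia against R26 normoxia (adjusted p = 0.0043, edgeR), a 2.48-fold higher mean. In HIF1a-ko hypoxia against R26 hypoxia it was -1.29 ± 0.25 (adjusted p = 0.0020). Against R26 normoxia the difference was 0.02 ± 0.25 (adjusted p = 0.95), which does not show that the levels were equal.

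Cxcl15 (ENSMUSG00000029375, chromosome 5, 90794534 to 90803067, plus strand) encodes lungkine, a neutrophil attractant known from the mouse lung. It was counted at 13.3, 15.4 and 13.8 CPM in HIF1a-ko hypoxia, 31.2, 30.8 and 31.4 CPM in R26 hypoxia, and 61.9, 63.2 and 63.0 CPM in R26 normoxia. No group overlapped another. Its log2 fold changes were -1.01 ± 0.06 in R26 hypoxia against R26 normoxia (adjusted p = 5.5e-06, edgeR) and -1.14 ± 0.06 in HIF1a-ko hypoxia against R26 hypoxia (adjusted p = 5.6e-07). Over both steps, HIF1a-ko hypoxia held 0.226 times the R26 normoxia mean (log2 fold change -2.15 ± 0.06, adjusted p = 8.6e-08). It was the only one of the 10 called in all 3 comparisons under every alternative run, and Cxcl5, with its opposite response to low oxygen, lies 32.9 kb away, with Ppbp, Pf4 and Cxcl3 between them.

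Cxcl1 (ENSMUSG00000029380, chromosome 5, 90891241 to 90893115, plus strand) and Cxcl2 (ENSMUSG00000058427, chromosome 5, 90903871 to 90905938, plus strand) are classic NF-kB targets that lie 10.8 kb apart in the same cluster. Cxcl1 was counted at 1.15, 1.53 and 1.77 CPM in HIF1a-ko hypoxia, 1.70, 1.61 and 1.75 CPM in R26 hypoxia, and 1.49, 1.35 and 1.00 CPM in R26 normoxia. R26 hypoxia lay above R26 normoxia in all 3 libraries without passing the test (log2 fold change 0.40 ± 0.21, adjusted p = 0.21, edgeR). Neither comparison of HIF1a-ko hypoxia was called (-0.19 ± 0.21, adjusted p = 0.51, against R26 hypoxia and 0.21 ± 0.21, adjusted p = 0.47, against R26 normoxia).

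Cxcl2 held 0, 53 and 70 counts in HIF1a-ko hypoxia 1 to 3, 64, 22 and 0 counts in R26 hypoxia 1 to 3, and 24, 24 and 4 counts in R26 normoxia 1 to 3. The lowest value of each group was its deeper library. The groups overlapped, R26 hypoxia and R26 normoxia also among their shallower libraries, and the errors of the fit were wide (log2 fold change 0.68 ± 1.64 in R26 hypoxia against R26 normoxia, adjusted p = 0.83). Cxcl14 (ENSMUSG00000021508, chromosome 13, 56288643 to 56296551, minus strand), an attractant of monocytes and dendritic cells, had the same pattern. It had 2 counts in the deeper HIF1a-ko hypoxia library, 6 in the deeper R26 hypoxia library and 10 in the deeper R26 normoxia library, against 31 to 61 counts in the 6 shallower libraries. No comparison of Cxcl14 was called, with adjusted p of 0.87, 0.89 and 0.95. In the 6 shallower libraries alone, Cxcl2 was higher in HIF1a-ko hypoxia than in R26 normoxia (log2 fold change 1.16, adjusted p = 0.044, edgeR).

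Some markers of other cell types were also lower in the deeper libraries. The 9 leukocyte markers summed to 11.4 to 20.3 CPM in the 3 deeper libraries and 40.0 to 64.6 CPM in the 6 shallower ones, and 6 of them averaged at least 1 CPM. For the 6 epithelial markers the sums were 14.1 to 46.5 CPM in deeper and 56.9 to 107 CPM in shallower libraries, and Epcam had 1 count in each deeper library against 154 to 305 in the shallower ones. The 5 endothelial markers summed to 7.37 to 11.9 CPM in deeper and 12.7 to 20.0 CPM in shallower libraries. Sums of the 7 acinar and islet markers, with Ins1 and Ins2 at 0 in all libraries, overlapped between depths (4.49 to 10.7 and 6.17 to 14.9 CPM). Cd79a, Vwf and Cela1 differed little with depth and Muc1 averaged 2.25 CPM in deeper and 1.98 CPM in shallower libraries, while the stellate markers Des (0.68 and 3.00 CPM) and Lum (0.89 and 3.11 CPM) were also lower in the deeper ones. The part of these cells or of depth in the Cxcl2 and Cxcl14 values was not tested, and in bulk RNA fewer cells of a type and less RNA per cell cannot be told apart. Among the other ligands Cxcl13 had no counts in the deeper libraries and 17 to 85 in the shallower ones. Among the members called in a comparison, Cxcl15 averaged 35.9 CPM in deeper and 36.0 CPM in shallower libraries, and Cxcl5 averaged 4.17 and 4.29 CPM. These averages pool the groups, and for Cxcl5 the groups differed. Its deeper library was lowest in HIF1a-ko hypoxia (1.87 CPM, against 3.26 and 3.54) and highest in R26 hypoxia (8.14 CPM, against 7.0 and 5.95). In R26 normoxia it held 2.51 CPM, against 2.53 and 3.46.

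Other markers moved with the groups. Krt19 and Muc1, from the list of epithelial markers, were highest in R26 hypoxia, as Cxcl5 was. The rest of that list, Epcam, Cdh1, Krt8 and Krt18, was not called in any comparison. In the deeper libraries Krt18 had 0 counts, Krt8 1 to 2 and Cdh1 90 to 281, while Krt19 had 970 to 4402 and Muc1 117 to 422. Krt19 averaged 17.8 ± 5.72 CPM in HIF1a-ko hypoxia, 54.7 ± 11.6 CPM in R26 hypoxia and 19.2 ± 7.21 CPM in R26 normoxia, and Muc1 averaged 1.27, 3.49 and 1.46 CPM in the same groups. Both rose in R26 hypoxia against R26 normoxia (log2 fold changes 1.52 and 1.26, adjusted p = 0.0093 and 0.00079, edgeR) and fell in HIF1a-ko hypoxia against R26 hypoxia (-1.62 and -1.46, adjusted p = 0.0030 and 9.8e-05). In that comparison the endothelial markers Kdr (1.17) and Egfl7 (0.96) rose and Vwf (-0.71) fell, and the B-cell marker Cd79a (-0.88) and the acinar markers Cpb1 (-2.08) and Cela1 (-1.22) fell. The acinar and islet sum was 4.49 to 7.06 CPM in HIF1a-ko hypoxia, 10.7 to 12.9 CPM in R26 hypoxia and 10.7 to 14.9 CPM in R26 normoxia. Of the stellate and fibroblast markers, Pdgfra, Col1a1 and Col1a2 rose in R26 hypoxia against R26 normoxia and, with Vim, fell in HIF1a-ko hypoxia against R26 hypoxia, where Col1a1 held 0.618 times, Col1a2 0.530 times and Pdgfra 0.308 times the R26 hypoxia mean. Acta2 and Dcn fell in R26 hypoxia against R26 normoxia, and Acta2 rose with the guide. Of these calls, the Col1a1 rise was lost in 9 of 17 alternatives, among them leaving out any R26 library but R26 normoxia 3 (adjusted p 0.052 to 0.16), the Kdr rise in 5, among them without R26 hypoxia 2 or 3 or HIF1a-ko hypoxia 2 or 3 (0.062 to 0.096), and the Vwf fall without R26 hypoxia 2 (0.056). The Cd79a fall was lost with no filter (adjusted p = 0.051), with the replicate block (0.066) and in the 6 shallower libraries (0.105). With no filter the Col1a2 rise (0.078) and the Vim fall (0.058) also missed the threshold. The part of these markers in the chemokine differences was not tested.

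**Figure D3:**
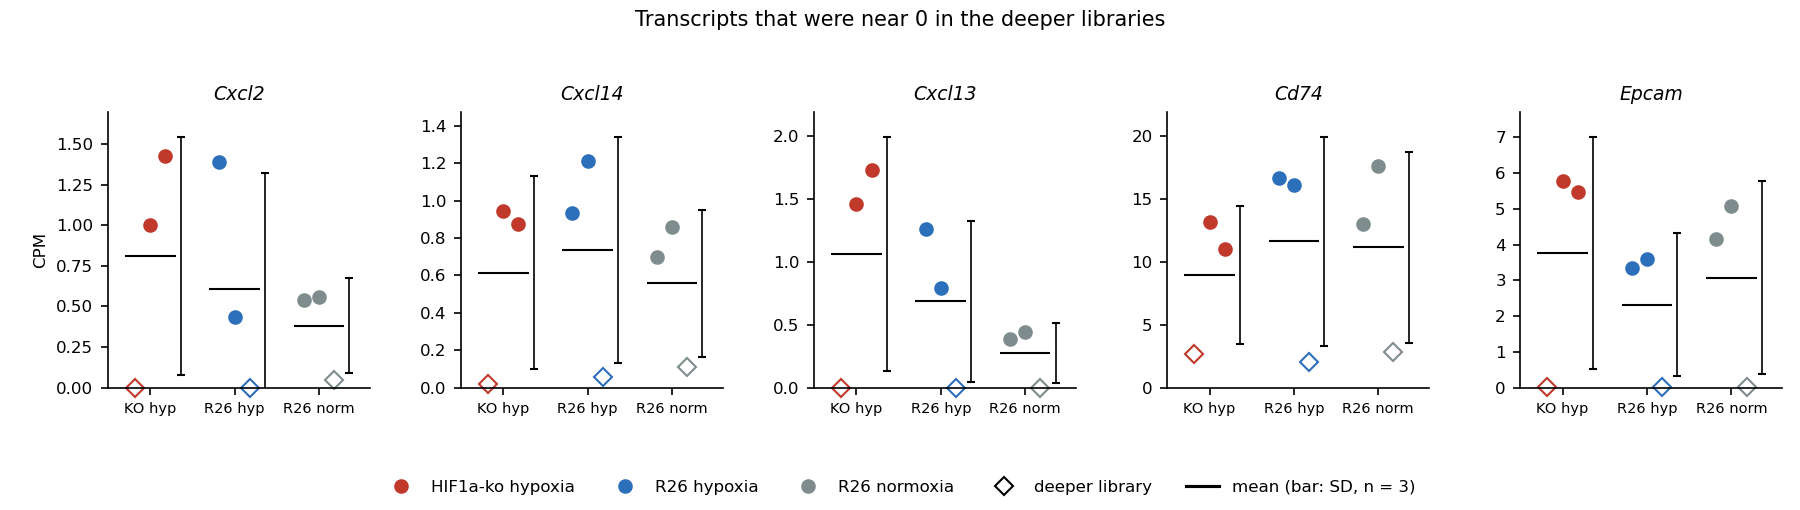
CPM per library of Cxcl2, Cxcl14, Cxcl13, the leukocyte marker Cd74 and the epithelial marker Epcam, with open diamonds for the deeper library of each group, a line for the mean and a bar for the SD (n = 3). Every diamond lies below the filled points of its group.

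Cxcl12 (ENSMUSG00000061353, chromosome 6, 117168535 to 117181367, plus strand) encodes the ligand of CXCR4. It was counted at 3991, 4169 and 4350 CPM in HIF1a-ko hypoxia, 6804, 6516 and 6242 CPM in R26 hypoxia, and 5131, 4960 and 4613 CPM in R26 normoxia. The 3 groups did not overlap, with R26 hypoxia highest and HIF1a-ko hypoxia lowest. In low oxygen it rose to 1.33 times the R26 normoxia mean (log2 fold change 0.41 ± 0.06, adjusted p = 0.00075, edgeR). With the Hif1a guide it held 0.639 times the R26 hypoxia mean (-0.65 ± 0.06, adjusted p = 1.3e-05), beside 0.618 times for Col1a1. It was also below R26 normoxia (-0.23 ± 0.06, adjusted p = 0.0080). That difference missed the threshold when HIF1a-ko hypoxia 1 was left out (adjusted p = 0.056), with no filter (0.19) and with the replicate block (0.071).

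Ccl2 (ENSMUSG00000035385, chromosome 11, 82035571 to 82037453, plus strand) and Ccl7 (ENSMUSG00000035373, chromosome 11, 82045712 to 82047525, plus strand) encode monocyte attractants that share the receptor CCR2, and they lie 8.26 kb apart. Ccl2 was counted at 8.15, 7.59 and 10.5 CPM in HIF1a-ko hypoxia, 7.57, 6.53 and 6.93 CPM in R26 hypoxia, and 11.8, 11.6 and 11.1 CPM in R26 normoxia. R26 normoxia lay above all 6 low-oxygen libraries, and HIF1a-ko hypoxia lay just above R26 hypoxia with no overlap. The log2 fold change was -0.72 ± 0.12 in R26 hypoxia against R26 normoxia (adjusted p = 0.0029, edgeR). Between HIF1a-ko hypoxia and R26 hypoxia it was 0.32 ± 0.12 (adjusted p = 0.061) and was not called. It passed the threshold in 4 of 17 alternatives and missed it in 13. The 4 were DESeq2 (adjusted p = 0.042), library depth as a term (0.025), the 6 shallower libraries (0.047) and leaving out HIF1a-ko hypoxia 2 (0.031). Between HIF1a-ko hypoxia and R26 normoxia the log2 fold change was -0.39 ± 0.12 (adjusted p = 0.029). That last call was lost in 8 of 17 alternatives. It was lost when any of R26 normoxia 1 to 3 or HIF1a-ko hypoxia 1 or 2 was left out (adjusted p 0.063 to 0.12). It was also lost with no filter (0.062), with the replicate block (0.075) and in the 6 shallower libraries (0.055).

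Ccl7 was counted at 5.11, 5.15 and 6.80 CPM in HIF1a-ko hypoxia, 5.61, 5.43 and 5.96 CPM in R26 hypoxia, and 9.06, 8.92 and 6.80 CPM in R26 normoxia. The low-oxygen groups overlapped each other, and R26 normoxia 3, the deeper library, lay nearest to them. Ccl7 was lower in R26 hypoxia than in R26 normoxia (log2 fold change -0.54 ± 0.15, adjusted p = 0.026, edgeR) and lower in HIF1a-ko hypoxia than in R26 normoxia (-0.54 ± 0.15, adjusted p = 0.017). The first call was lost without R26 normoxia 1 or 2 or R26 hypoxia 1 or 2 (adjusted p 0.070 to 0.098). The second was lost without R26 normoxia 1 or 2 or HIF1a-ko hypoxia 1 or 2 (adjusted p 0.061 to 0.072) and with the replicate block (0.095). Between HIF1a-ko hypoxia and R26 hypoxia the difference was 0.00 ± 0.15 (adjusted p = 0.99).

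Both membrane-anchored chemokines were called lower with the Hif1a guide and were not called in R26 hypoxia against R26 normoxia, and whether the effects of guide and oxygen differ was not tested. Cxcl16 (ENSMUSG00000018920, chromosome 11, 70453983 to 70459984, minus strand), the ligand of CXCR6, was counted at 3.08, 4.05 and 3.07 CPM in HIF1a-ko hypoxia, 5.83, 5.77 and 5.20 CPM in R26 hypoxia, and 5.40, 7.50 and 5.17 CPM in R26 normoxia. All HIF1a-ko hypoxia libraries lay below the other 6. The log2 fold change was -0.72 ± 0.17 in HIF1a-ko hypoxia against R26 hypoxia (adjusted p = 0.0068, edgeR), -0.82 ± 0.17 against R26 normoxia (adjusted p = 0.0038) and -0.10 ± 0.17 in R26 hypoxia against R26 normoxia (adjusted p = 0.73). Of its exon sequence, 16.9% of the 50-base windows also occur in Zmynd15, whose exons overlap it by 552 bases on the opposite strand, so its counts are uncertain without the strand setting of the counting.

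Cx3cl1 (ENSMUSG00000031778, chromosome 8, 94772009 to 94782427, plus strand) encodes fractalkine, the ligand of CX3CR1. It was counted at 19.5, 20.7 and 18.8 CPM in HIF1a-ko hypoxia, 21.2, 26.2 and 22.7 CPM in R26 hypoxia, and 25.9, 26.8 and 25.8 CPM in R26 normoxia. HIF1a-ko hypoxia lay below both R26 groups, which overlapped at R26 hypoxia 2. It was lower in HIF1a-ko hypoxia than in R26 normoxia (log2 fold change -0.41 ± 0.08, adjusted p = 0.0027, edgeR). Against R26 hypoxia it was -0.25 ± 0.08 (adjusted p = 0.031), a call lost in 6 of 17 alternatives. It was lost without R26 hypoxia 2, HIF1a-ko hypoxia 1 or HIF1a-ko hypoxia 3 (adjusted p 0.086 to 0.13). It was also lost with no filter (0.052), in the fit of the 2 groups alone (0.058) and with the replicate block added (0.052). In R26 hypoxia against R26 normoxia it was -0.16 ± 0.08 (adjusted p = 0.18), and 0.035 without R26 hypoxia 2.

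**Figure D4:**
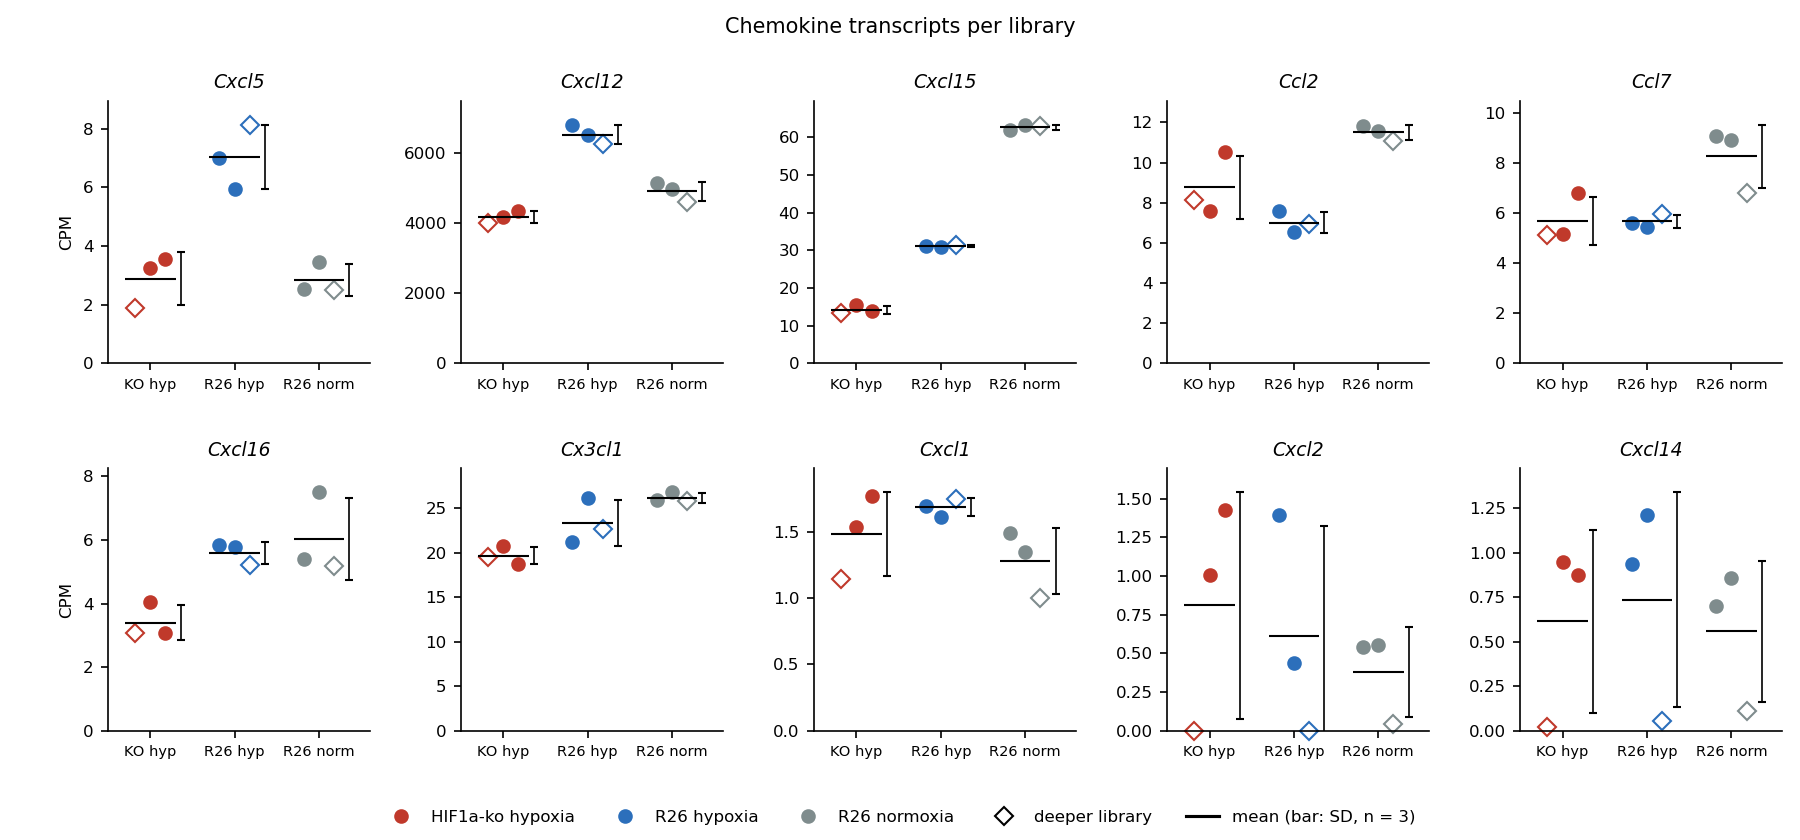
CPM per library of the 10 chemokine genes, with the groups from left to right HIF1a-ko hypoxia, R26 hypoxia and R26 normoxia, open diamonds for the deeper library of each group, a line for the mean and a bar for the SD (n = 3). Cxcl5 and Cxcl12 are highest in R26 hypoxia, and Cxcl15 averages 14.2 CPM in HIF1a-ko hypoxia, 31.1 CPM in R26 hypoxia and 62.7 CPM in R26 normoxia.

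Promoter sequence from RefSeq (GRCm38.p6, 250 bases before to 50 after each gene start) was held for 6 of the 10 genes: Cxcl1, Cxcl2, Cxcl12, Cxcl14, Cxcl15 and Cx3cl1. Each was searched on both strands for the NF-kB-type motif GGG, any 2 bases, TTTCC, and for ACGTG and GCGTG, the cores of the hypoxia response element that HIF binds. The promoters of Cxcl12 (chr6:117168285-117168584, plus strand) and Cxcl15 (chr5:90794284-90794583, plus strand) are shown because these genes were called in all 3 comparisons, those of Cxcl1 (chr5:90890995-90891294, plus strand) and Cxcl2 (chr5:90903649-90903948, plus strand) because they share a match. Capitals mark the matches.
Cxcl12: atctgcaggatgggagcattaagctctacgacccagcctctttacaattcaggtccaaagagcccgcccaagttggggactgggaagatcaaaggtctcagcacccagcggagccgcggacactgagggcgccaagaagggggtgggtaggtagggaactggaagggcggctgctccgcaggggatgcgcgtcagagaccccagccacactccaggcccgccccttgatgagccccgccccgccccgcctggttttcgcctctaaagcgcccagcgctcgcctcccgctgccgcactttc
Cxcl15: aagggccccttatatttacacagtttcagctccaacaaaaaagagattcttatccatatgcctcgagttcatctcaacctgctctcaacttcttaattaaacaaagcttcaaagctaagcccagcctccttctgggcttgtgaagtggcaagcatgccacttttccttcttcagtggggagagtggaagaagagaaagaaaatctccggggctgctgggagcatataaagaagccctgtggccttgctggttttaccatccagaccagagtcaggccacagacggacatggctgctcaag
Cxcl1: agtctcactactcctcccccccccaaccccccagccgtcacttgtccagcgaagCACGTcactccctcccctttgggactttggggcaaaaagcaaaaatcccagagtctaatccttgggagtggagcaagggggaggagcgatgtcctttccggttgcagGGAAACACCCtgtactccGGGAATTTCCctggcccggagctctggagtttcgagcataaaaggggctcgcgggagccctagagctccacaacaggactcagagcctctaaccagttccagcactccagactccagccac
Cxcl2: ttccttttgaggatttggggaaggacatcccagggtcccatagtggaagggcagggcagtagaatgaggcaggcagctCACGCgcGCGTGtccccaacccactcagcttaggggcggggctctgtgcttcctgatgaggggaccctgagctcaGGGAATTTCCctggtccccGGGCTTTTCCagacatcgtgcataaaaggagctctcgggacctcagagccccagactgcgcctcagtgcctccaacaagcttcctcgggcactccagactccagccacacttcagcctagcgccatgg

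Cxcl12 and Cxcl15 held none of the 3 motifs in these windows, and neither did Cx3cl1. Cxcl1 and Cxcl2 each held 2 matches to the NF-kB-type motif, which is found in 1.63% of 32851 promoters of the same length, and both promoters hold the same letters GGGAATTTCC, which begin 71 bases before the start in Cxcl1 and 97 bases before it in Cxcl2. The ACGTG core occurred once in Cxcl1 (19.6% of all promoters hold it), and the GCGTG core occurred at 2 places in Cxcl2 and 2 in Cxcl14 (32.4% of all promoters). A match is only a match of letters, and a window without one says nothing about the factor. Of the 6 genes with a promoter held, those with matches to the cores, Cxcl1, Cxcl2 and Cxcl14, had no call in the main test. For Cxcl2 and Cxcl14 the errors were wide (SE 1.64 and 1.23 in R26 hypoxia against R26 normoxia), so a call was hard to reach. A link between the cores and the calls was not tested.

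The messages also differ in AU-rich pentamers, ATTTA, which decay factors such as ZFP36 recognise in 3′ untranslated regions. In the longest coding transcript of each gene in GENCODE M21, Cxcl1 held 7 and Cxcl2 held 11, or 11.8 and 7.36 per kb, more per kb than 99.2% and 97.1% of 20981 genes. The median gene had 1.22 per kb. The densest 30-base windows of both are shown as the clearest examples, at chr5:90892602-90892631 for Cxcl1 and chr5:90905327-90905356 for Cxcl2 (plus strand, GRCm38), with ATTTA in capitals.
Cxcl1: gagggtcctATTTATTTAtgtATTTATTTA
Cxcl2: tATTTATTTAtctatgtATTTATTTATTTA

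The pentamer was also dense in Ccl7 (4.60 per kb), Cxcl5 (4.50 per kb) and Ccl2 (3.64 per kb). It was near the median in Cxcl16 (1.41 per kb) and Cxcl15 (1.26 per kb), below it in Cxcl12 (0.77 per kb) and Cx3cl1 (0.53 per kb), and Cxcl14 had none. The longer letters TTATTTATT occurred in 3 of the 10, Cxcl1, Cxcl2 and Cx3cl1, and in 7.57% of all genes.

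Of 31 other chemokine ligands, 14 passed the filter and 5 had no counts at all (Ccl1, Ccl21a, Ccl21b, Ccl21c and Ccl26). In R26 hypoxia against R26 normoxia 1 was higher and 1 lower, in HIF1a-ko hypoxia against R26 hypoxia 2 were higher and 1 lower, and in HIF1a-ko hypoxia against R26 normoxia 1 was lower. Over all tested genes the shares were 12.8% higher and 12.4% lower, 22.0% and 23.8%, and 19.5% and 21.9% in these comparisons, so the ligands were called no more often than genes at large. Cxcl10, an interferon-induced attractant of T cells, was 1.09, 0.81 and 1.30 CPM in HIF1a-ko hypoxia, 1.33, 0.82 and 0.52 CPM in R26 hypoxia, and 2.98, 2.39 and 2.53 CPM in R26 normoxia. It fell in both low-oxygen groups against R26 normoxia (log2 fold change -1.59 ± 0.32 in R26 hypoxia, adjusted p = 0.0066, edgeR, and -1.30 ± 0.32 in HIF1a-ko hypoxia, adjusted p = 0.0093). Ccl27a was higher in R26 hypoxia than in R26 normoxia (0.45 ± 0.09, adjusted p = 0.0062) and lower in HIF1a-ko hypoxia than in R26 hypoxia (-0.28 ± 0.09, adjusted p = 0.029), and it was not called in HIF1a-ko hypoxia against R26 normoxia (0.17 ± 0.09, adjusted p = 0.17). Ccl5 and Ccl25 were higher in HIF1a-ko hypoxia than in R26 hypoxia (1.34 ± 0.40, adjusted p = 0.021, and 0.38 ± 0.08, adjusted p = 0.0031). Of these, the Ccl27a call against R26 hypoxia was lost without R26 hypoxia 1 or 2 or HIF1a-ko hypoxia 2 or 3 (adjusted p 0.054 to 0.12), and the Ccl5 call without R26 hypoxia 2 or HIF1a-ko hypoxia 2 or 3 (0.056 to 0.059).

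Among 24 chemokine receptors 14 were tested and 4 averaged at least 1 CPM. Ackr3, the scavenger receptor of CXCL12, was 8.99, 8.80 and 7.67 CPM in HIF1a-ko hypoxia, 10.9, 11.1 and 10.6 CPM in R26 hypoxia, and 6.01, 6.60 and 6.33 CPM in R26 normoxia. The groups did not overlap, and Ackr3, like its ligand, was highest in R26 hypoxia. Its log2 fold changes were 0.78 ± 0.09 in R26 hypoxia against R26 normoxia (adjusted p = 0.00023, edgeR), -0.36 ± 0.09 in HIF1a-ko hypoxia against R26 hypoxia (adjusted p = 0.0072) and 0.43 ± 0.09 in HIF1a-ko hypoxia against R26 normoxia (adjusted p = 0.0031). Cxcr4, the signalling receptor of CXCL12, stayed at 0.066 to 0.87 CPM and was lowest in the deeper libraries. The other calls were Ccr10 and Gpr182, higher in R26 hypoxia than in R26 normoxia (0.71 ± 0.19, adjusted p = 0.021, and 0.72 ± 0.17, adjusted p = 0.012), and Ackr1, lower in HIF1a-ko hypoxia than in R26 hypoxia (-1.58 ± 0.55, adjusted p = 0.040). Leaving out 1 library ended the Ccr10 call for each R26 library but R26 hypoxia 3 (adjusted p 0.051 to 0.068), the Gpr182 call for R26 normoxia 2 (0.050) and the Ackr1 call for R26 normoxia 1, R26 hypoxia 1 or 3 and HIF1a-ko hypoxia 1 or 2 (0.055 to 0.13). The Ccr10 call was also lost with no filter (0.071). The Ackr1 call was lost in 8 of 16 alternatives, among them the fit of 2 groups (0.055), the replicate block (0.052) and the 6 shallower libraries (0.065). Ackr1 rests on few counts, 14 to 74 in the deeper libraries and 5 to 37 in the shallower ones.

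The 7 genes of shedding and trimming were all tested. Adam17, which with Adam10 releases membrane-anchored chemokines, was higher in both low-oxygen groups, with log2 fold changes of 0.41 ± 0.05 in HIF1a-ko hypoxia (adjusted p = 0.00010, edgeR) and 0.48 ± 0.05 in R26 hypoxia (adjusted p = 0.00014), each against R26 normoxia. In HIF1a-ko hypoxia against R26 hypoxia, Adam10 was higher (0.31 ± 0.05, adjusted p = 0.00073), and Rhbdf1 and Rhbdf2, which carry ADAM17 to the surface, and the matrix proteases Mmp2 and Mmp14 were lower. Mmp14 was the only one lower in R26 hypoxia than in R26 normoxia (-0.23 ± 0.05, adjusted p = 0.010), and Dpp4, which trims CXCL12, was not called in any comparison. The Rhbdf2 call missed the threshold without HIF1a-ko hypoxia 3 (adjusted p = 0.068), and the Mmp14 call in R26 hypoxia with no filter (adjusted p = 0.086).

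Of 11 NF-kB subunits and inhibitors, 4 were higher and 2 lower in R26 hypoxia than in R26 normoxia, 1 was higher and 9 lower in HIF1a-ko hypoxia than in R26 hypoxia, and 1 was higher and 8 lower in HIF1a-ko hypoxia than in R26 normoxia. Of all tested genes 12.8% were higher and 12.4% lower in the first comparison, 22.0% and 23.8% in the second, and 19.5% and 21.9% in the third. The median log2 fold change was -0.48 over the list in HIF1a-ko hypoxia against R26 hypoxia and -0.02 over all genes. The 4 that rose in R26 hypoxia were Nfkbiz, Tnfaip3, Bcl3 and Nfkbia, of which Tnfaip3 and Nfkbia restrain NF-kB signalling and Nfkbiz and Bcl3 encode nuclear partners of its subunits. Bcl3 was 8.71, 7.19 and 8.06 CPM in HIF1a-ko hypoxia, 22.3, 23.7 and 25.5 CPM in R26 hypoxia, and 13.8, 14.8 and 15.0 CPM in R26 normoxia, with no overlap. Its log2 fold change was -1.58 ± 0.09 in HIF1a-ko hypoxia against R26 hypoxia (adjusted p = 7.8e-07, edgeR) and 0.71 ± 0.08 in R26 hypoxia against R26 normoxia (adjusted p = 0.00037). Rel was the 1 member higher with the guide (0.44 ± 0.11 against R26 hypoxia, adjusted p = 0.0089), and the Nfkbia rise missed the threshold without R26 normoxia 1 (adjusted p = 0.051). The 2 lower in R26 hypoxia, Nfkb2 (-0.13 ± 0.04, adjusted p = 0.028) and Nfkbib (-0.24 ± 0.08, adjusted p = 0.048), lost their calls in 11 and 13 of 17 alternatives, both of them on leaving out any single R26 library (adjusted p 0.052 to 0.14). With the guide, Relb lost its call against R26 hypoxia without HIF1a-ko hypoxia 3 (0.054), and Nfkbib its call against R26 normoxia in 5 of 17 (0.065 to 0.12).

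Of 10 receptors and adaptors that feed chemokine transcription, 6 were lower and none higher in HIF1a-ko hypoxia than in R26 hypoxia, and 7 lower in HIF1a-ko hypoxia than in R26 normoxia, with none higher by unadjusted edgeR p or by DESeq2 in either. Of all tested genes 23.8% and 21.9% were lower. The Il17ra calls, with log2 fold changes of -0.23 ± 0.07 and -0.20 ± 0.07, were lost in 5 of 17 alternatives in the first comparison (adjusted p 0.052 to 0.074) and 10 of 17 in the second (0.056 to 0.14), among them leaving out any 1 HIF1a-ko hypoxia library. Il1r1, the interleukin-1 receptor, was 35.8, 38.4 and 34.2 CPM in HIF1a-ko hypoxia, 93.2, 104 and 105 CPM in R26 hypoxia, and 90.0, 91.1 and 98.3 CPM in R26 normoxia. The HIF1a-ko hypoxia libraries lay below all others, with a log2 fold change of -1.48 ± 0.06 against R26 hypoxia (adjusted p = 2.1e-07, edgeR). Osmr, the oncostatin M receptor, was the only one of these 10 to rise in R26 hypoxia against R26 normoxia (0.68 ± 0.07, adjusted p = 0.00014), and it fell in HIF1a-ko hypoxia against R26 hypoxia (-1.18 ± 0.07, adjusted p = 1.1e-06). Il1rap was the 1 that fell in R26 hypoxia against R26 normoxia (-0.80 ± 0.06, adjusted p = 2.2e-05). Of all tested genes, 12.8% were higher and 12.4% lower in that comparison.

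The last list held 7 genes, for binding proteins of AU-rich messages and for the ribonuclease of Zc3h12a. Of the 7, 3 rose and 1 fell in R26 hypoxia against R26 normoxia, where 12.8% of all tested genes rose and 12.4% fell. In HIF1a-ko hypoxia against R26 hypoxia 1 rose and 4 fell, against 22.0% and 23.8% of all tested genes. The gene that fell in R26 hypoxia and rose with the guide was Hnrnpd, whose calls were each lost on leaving out any of 3 or 4 single libraries (adjusted p 0.059 to 0.092). Zfp36, which promotes decay of such messages, was 15.1, 14.9 and 14.2 CPM in HIF1a-ko hypoxia, 31.0, 34.8 and 32.4 CPM in R26 hypoxia, and 19.0, 18.2 and 18.6 CPM in R26 normoxia. R26 hypoxia was highest and no groups overlapped (log2 fold change 0.82 ± 0.06 against R26 normoxia, adjusted p = 2.5e-05, and -1.15 ± 0.06 in HIF1a-ko hypoxia against R26 hypoxia, adjusted p = 5.9e-07, edgeR). Zc3h12a, a ribonuclease that cuts inflammatory messages, was 6.24, 6.23 and 6.70 CPM in HIF1a-ko hypoxia, 13.1, 13.0 and 13.1 CPM in R26 hypoxia, and 10.2, 9.89 and 9.93 CPM in R26 normoxia. Both genes were thus highest in R26 hypoxia and lowest with the Hif1a guide. Zfp36l2 also rose in R26 hypoxia and fell with the guide, the call with the guide missing the threshold without HIF1a-ko hypoxia 2 or 3 (adjusted p 0.052 and 0.057).

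**Figure D5:**
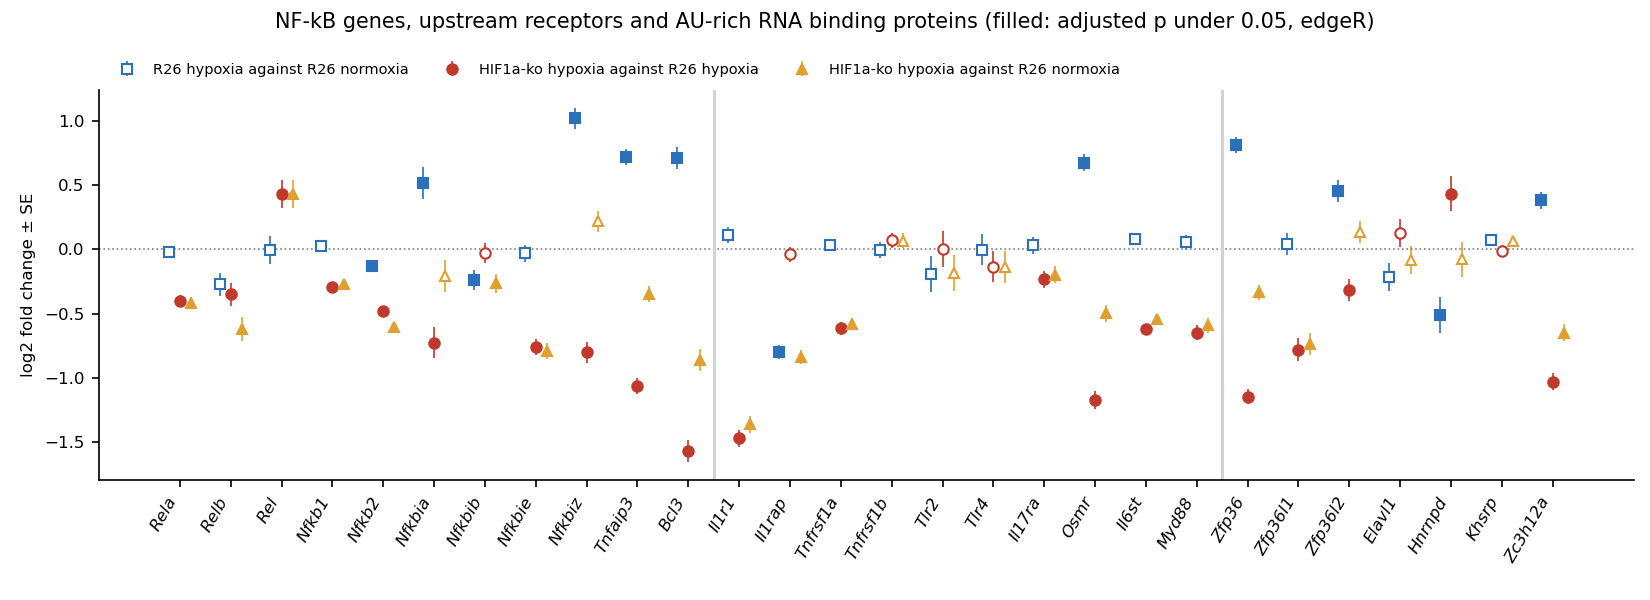
Log2 fold change with its SE for the 11 NF-kB genes (left), 10 upstream receptors and adaptors (middle) and 7 RNA regulators (right) in the 3 comparisons. The 7 are binding proteins of AU-rich messages and the ribonuclease gene Zc3h12a. Filled symbols mark an adjusted p under 0.05. Nfkbiz, Tnfaip3, Bcl3, Nfkbia, Osmr, Zfp36, Zfp36l2 and Zc3h12a lie above 0 in R26 hypoxia against R26 normoxia and below 0 in HIF1a-ko hypoxia against R26 hypoxia.

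The genes whose CPM followed each chemokine most closely over the 9 libraries were found by Pearson's r on log2 values among 9596 genes, as a description only, since the points share libraries, depth and group. Cxcl12 was followed by Grk5 (r = 0.995) and Smim1 (r = 0.993). For Cxcl15 they were Carmil1 (r = 0.997) and Eps8 (r = 0.995), and Eps8 was 79.3 ± 2.52 CPM in HIF1a-ko hypoxia, 117 ± 1.39 CPM in R26 hypoxia and 174 ± 2.06 CPM in R26 normoxia. Cxcl5 was followed by Sytl2 (r = 0.969) and Myof (r = 0.966), and Cxcl1 by Tmcc3 (r = 0.922) and Ptprm (r = 0.910). Ccl2 was most like Acta2, the smooth muscle actin of activated fibroblasts (r = 0.965), and Hmgcs1 (r = 0.962), and Ccl7 was most like Rab11a (r = 0.963) and Clcn6 (r = 0.934).

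Cxcl16 was followed by Mrm1 (r = 0.99) and Cd1d1 (r = 0.98), and Cx3cl1 by Igf2r (r = 0.973) and Antxr1 (r = 0.971). Cxcl2 was most like Fabp4 (r = 0.957) and Dlg1 (r = 0.950), and Cxcl14 was most like Dlg1 (r = 0.965) and Cd74 (r = 0.963). Acta2 was 1143 ± 116 CPM in HIF1a-ko hypoxia, 787 ± 51.1 CPM in R26 hypoxia and 1520 ± 30.2 CPM in R26 normoxia, the same order of groups as Ccl2.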

How the data were processed

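Raw read counts per Ensembl gene were deposited by the authors for 9 poly-A RNA libraries. The tools they list, per the submitters' processing notes, are bcl2fastq 2.17, Trimmomatic, DESeq2, featureCounts and STAR, on the build GRCm38. No source used here gives the annotation release, the strand setting or how reads with several matches were handled. Of 49315 identifiers, 49056 were paired with a GENCODE M21 symbol. The test across genes was edgeR 4.0.16 under R 4.3.3 (TMM, filterByExpr, glmQLFit and glmQLFTest, two-sided, all 9 libraries, group as the only term) with Benjamini-Hochberg adjustment over 18211 genes and a threshold of 0.05. Every adjusted p is from this test unless another is named, and the SE was taken from the fold change and its F statistic. CPM use TMM library sizes, and merged exons gave lengths. The fit was tested on simulated data. Between libraries of a group, chi-square per degree of freedom was 6.18 to 63.0, so none were counted as duplicates. Same-numbered R26 libraries deviated together (r = 0.48, 0.53 and 0.85), but R26 libraries 1 and 2 correlated across numbers too (0.50 and 0.59). The deeper HIF1a-ko hypoxia 1 likewise correlated with the deeper R26 hypoxia 3 (0.83) and R26 normoxia 3 (0.84). The main test used no pairs, and the replicate number entered only as a block in an alternative. Alternatives were DESeq2 1.42.0, its size factors, other filters, 2-group fits, a block, a depth term, the 6 shallower libraries and leaving out each library. The named genes were the 10 members, the list genes called in at least 1 comparison or needed to describe a list, and the 2 most similar genes per member. The members and lists were chosen with earlier results of these data known.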

Additional observations from a re-analysis of the deposited data

How the results depend on the processing

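Cxcl5, Cxcl12 and Cxcl15 kept direction and call in R26 hypoxia against R26 normoxia and in HIF1a-ko hypoxia against R26 hypoxia under all 17 alternatives (log2 fold changes 1.13 to 1.48, 0.38 to 0.45 and -1.02 to -0.99 in the first, and -1.45 to -0.93, -0.68 to -0.61 and -1.20 to -1.08 in the second). Genes called in R26 hypoxia against R26 normoxia numbered 3964 in the fit of those 2 groups, 7259 in that fit with the replicate block, 6959 with depth class as a term, and 3287 to 4373 without 1 library. In HIF1a-ko hypoxia against R26 hypoxia and against R26 normoxia, same-numbered libraries did not deviate together (r = -0.66, 0.57 and -0.65, and -0.62, 0.59 and -0.67). There the fit of 2 groups called 7999 genes against R26 hypoxia and 7671 against R26 normoxia, with 4 and 6 of the 10 chemokines, the same fit with the replicate block 6761 and 6240, with 4 and 3, and all 9 libraries with depth class as a term 10424 and 9617. Leaving out 1 library gave 4 to 5 called chemokines in R26 hypoxia against R26 normoxia, 4 to 6 in HIF1a-ko hypoxia against R26 hypoxia, and 3 to 6 in HIF1a-ko hypoxia against R26 normoxia, lowest without HIF1a-ko hypoxia 1. Among recomputed fold changes of the members, and of list genes and markers where the main test called them, 162 lost a call. Calls gained were followed for the members only, and 6 of their fold changes gained one.

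Signs turned only where nothing was called. Ccl7 in HIF1a-ko hypoxia against R26 hypoxia was -0.0045 in the fit of 2 groups, -0.015 with the block, -0.017 with depth class and -0.13 to 0.084 without 1 library. Cxcl1 there was 0.0012 in the 6 shallower libraries, Cxcl2 -0.29 to 1.99 and Cxcl14 -0.85 to 0.35 without 1 library. Against R26 normoxia, HIF1a-ko hypoxia gave Cxcl5 -0.0076 with the block, -0.0065 with depth class and -0.12 to 0.29 without 1 library, and Cxcl14 -0.16, -0.094 and -0.36 to 0.78. Without 1 library, R26 hypoxia against R26 normoxia gave Cxcl2 -0.88 to 1.33, Cxcl14 -0.20 to 1.00 and Cxcl16 -0.19 to 0.084. The cause was not tested. With at least 1 CPM in 3 libraries required, Cxcl14 was not tested. Group means moved by 1 SD or more in 1 of 60 recomputations with plain library totals or DESeq2 size factors. Cxcl2 and Cxcl14 rest on few counts, 0 to 10 in the deeper libraries and 22 to 70 in the shallower ones.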
